A study of Mus musculus with 32 samples.

Results

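The chemokines and monocyte recruitment genes examined here were 10 named genes of mouse liver: the CC chemokine ligands Ccl2, Ccl7 and Ccl6, the CXC chemokine ligands Cxcl1, Cxcl10 and Cxcl14, the chemokine receptors Ccr2 and Cx3cr1, and the myeloid surface proteins Ly6c2 and Cd14. They were taken by name from the 52636 genes of the count table, and all 10 passed the filter on low counts that left 15599 genes for testing. RNA-seq had been carried out on 32 livers, 1 library each, in 8 groups of 4 mice that crossed genotype (wild type or a knockout of Thrb, the gene for thyroid hormone receptor beta), hormone (PBS or T3, the active thyroid hormone) and injection (olive oil or carbon tetrachloride, CCl4, a hepatotoxin that is activated in hepatocytes and causes fibrosis on repeated dosing). All mice, the PBS and oil controls included, had been kept on a PTU/LID diet, which combines an inhibitor of thyroid hormone synthesis with low iodine. The livers labelled CCl4 came from mice given 0.4 µl per g 2 times a week for 4 weeks, 9 injections in all, and those labelled T3 from mice given 1 µg per ml of T3 in the drinking water during the last of those weeks. Livers were taken 24 h after the last injection. The labels name no tissue-specific driver for the knockout and they give no strain, age or sex. Nothing in the labels says whether the 4 mice of a group came from separate litters or cages, so p-values measure the spread between these samples.

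Chemokines are small secreted proteins that form gradients along vessel walls and steer leukocytes through G-protein-coupled receptors. In injured liver, resident macrophages, endothelium, stellate cells and hepatocytes release CC ligands such as CCL2 and CCL7, which draw CCR2-bearing, Ly6C-high monocytes from blood. These cells become macrophages that can promote scarring and later take part in its resolution, often with a change from CCR2 to CX3CR1. CXC ligands with an ELR motif, such as CXCL1, act mainly on neutrophils, and CXCL10, an interferon-induced ligand of CXCR3, acts mainly on T and NK cells.

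Library totals ran from 16985162 to 26118055 counts, and values are given as CPM, a gene's count relative to the library total after trimmed-mean (TMM) scaling. Thrb transcripts were still counted in the knockouts, with group means of 59.0 CPM in wild type and 35.9 CPM in knockout on PBS and oil, 48 and 29.5 on T3 and oil, 23.5 and 20 on PBS and CCl4, and 40.5 and 20.1 on T3 and CCl4. Gene-level counts hold reads from outside the deleted part, so they do not check the deletion. Dio1, a gene induced by T3 in liver, ran from 0.295 to 1.0 CPM in wild-type livers on PBS and from 844 to 1185 on T3, and from 3.95 to 20 in knockouts on PBS and 77.3 to 135 on T3, so no library went against its hormone label. The liver identity was clear from the summed hepatocyte markers, 107560 to 157223 CPM in wild-type oil livers on PBS. The libraries farthest from their group mean over all genes were replicates 2 and 4 of the wild-type PBS-CCl4 group and replicate 3 of the knockout PBS-CCl4 group. For the chemokine and monocyte recruitment genes examined here, results that rest on one of them are given with and without it. For genes of the other lists and for cell markers, no fold change or call without them is given.

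**Figure D1:**
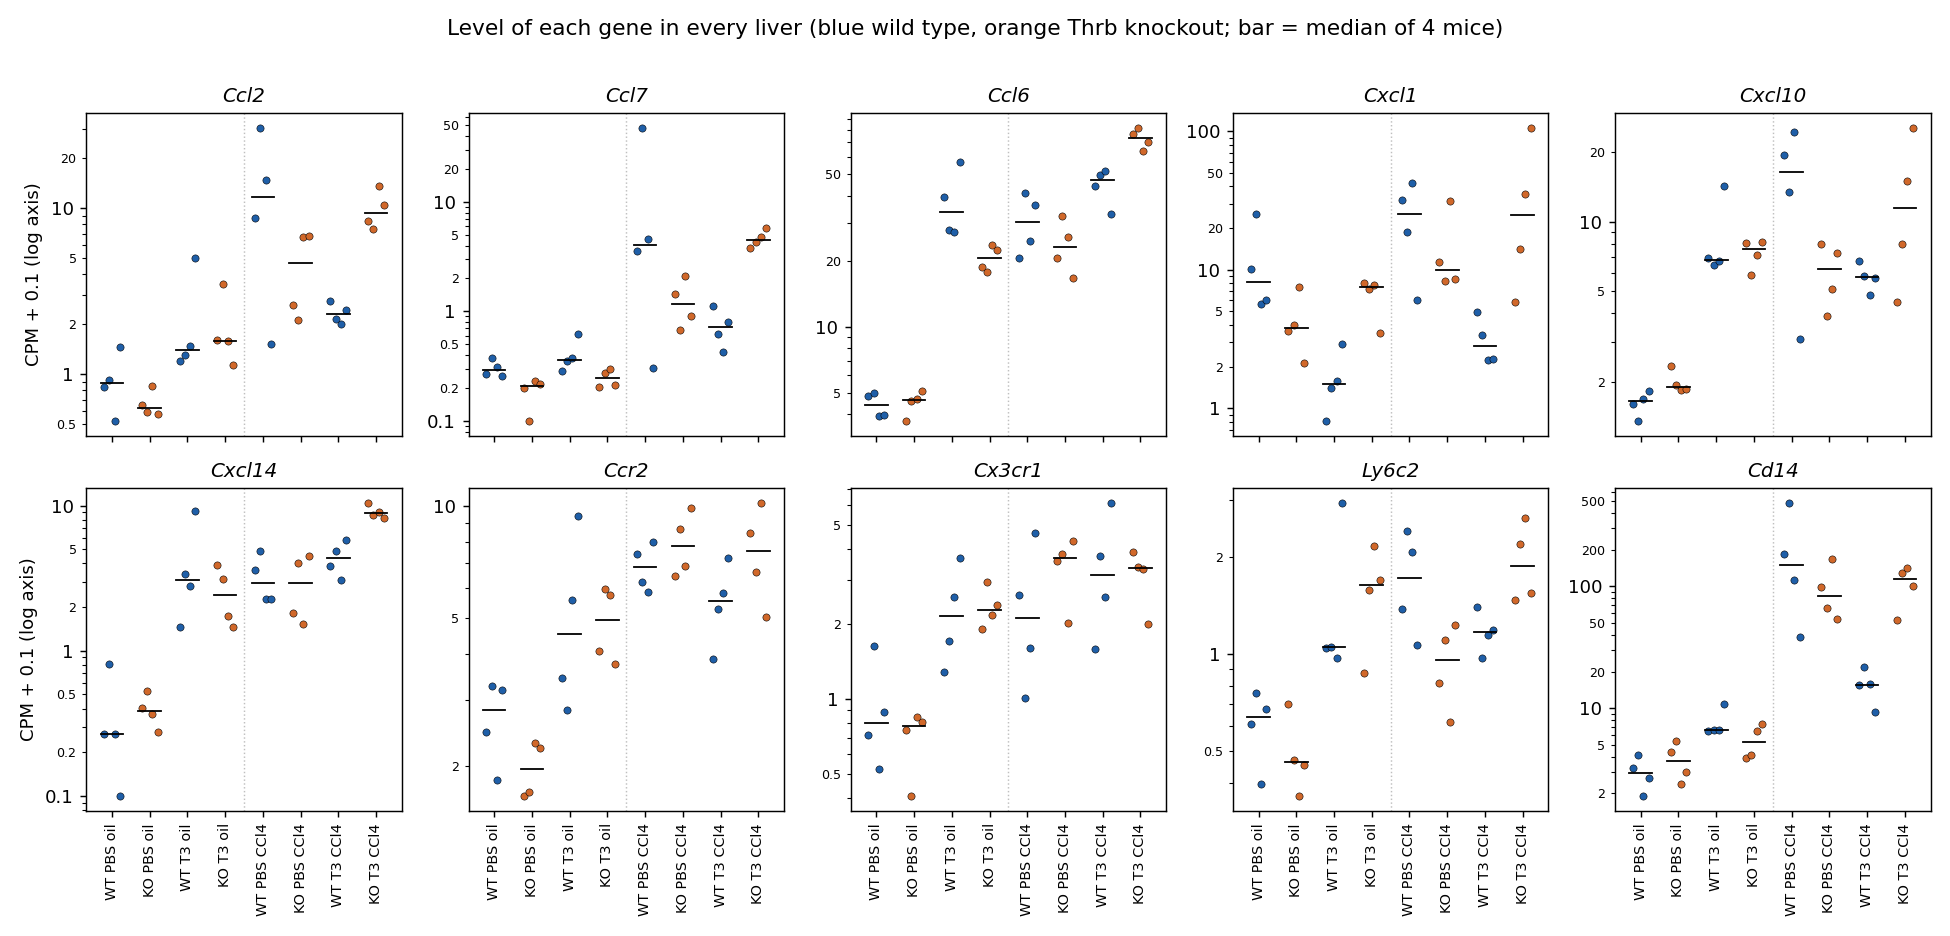
Level of each of the 10 genes in every liver, as CPM plus 0.1 on a log axis, by group, with wild-type livers in blue, Thrb knockouts in orange and a bar at the median of 4 mice. Cd14 reached 487 CPM in a wild-type PBS-CCl4 liver against at most 5.3 CPM in the PBS-oil livers, whereas Ccl6 was highest in the knockout T3-CCl4 group (63.6 to 81.7 CPM).

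Ccl2 (ENSMUSG00000035385, GRCm38 chromosome 11, 82035571 to 82037453, plus strand) encodes the principal CCR2 ligand. Wild-type livers on PBS held 0.731, 0.823, 0.421 and 1.36 CPM after oil and 8.66, 30.4, 14.6 and 1.41 CPM after CCl4, in the order of replicates 1 to 4 used throughout. Knockout livers on PBS held 0.552, 0.493, 0.748 and 0.473 CPM after oil and 2.51, 2.02, 6.57 and 6.69 CPM after CCl4. In both genotypes the CCl4 livers lay above the oil livers without overlap, by a narrow margin for replicate 4 of the wild type. On T3, wild-type livers held 1.09, 1.21, 1.38 and 4.87 CPM after oil and 2.66, 2.04, 1.9 and 2.34 CPM after CCl4, so these groups overlapped. Knockout livers on T3 held 1.5, 3.37, 1.48 and 1.03 CPM after oil and 8.28, 7.37, 13.5 and 10.3 CPM after CCl4, with no overlap. By group mean, Ccl2 ran from 0.566 CPM (knockout, PBS and oil) to 13.8 CPM (wild type, PBS and CCl4), and among neighbours in that order only the step from knockout PBS-CCl4 (4.45) to knockout T3-CCl4 (9.87) was free of overlap.

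CCl4 raised Ccl2 in wild-type livers on PBS by a log2 fold change of 4.05 ± 0.64 (standard error, as after every log2 value below), 16.6-fold (adjusted p = 2.04e-05). The rise was 2.94 ± 0.66 in knockouts on PBS (adjusted p = 0.00167) and 2.43 ± 0.59 in knockouts on T3 (adjusted p = 0.00194), while in wild type on T3 the value was 0.05 ± 0.58 with a 95% interval of -1.09 to 1.20. Among CCl4 livers, T3 lowered Ccl2 6.15-fold in wild type (-2.62 ± 0.58, adjusted p = 6.62e-04), whereas in knockouts the T3 value was 1.15 ± 0.54 (adjusted p = 0.296). The genotype difference in that T3 response was 3.77 ± 0.79 (adjusted p = 0.00105), and knockouts on T3 and CCl4 stood 4.41-fold above their wild-type counterparts (adjusted p = 0.00719). On oil, the T3 values were 1.38 ± 0.64 in wild type and 1.67 ± 0.68 in knockouts (adjusted p = 0.0944 and 0.0869). DESeq2 called both (0.0492 and 0.0288), and the fit of only those groups called the knockout value (0.0123). The T3 response in wild type also differed between injured and oil livers, by -4.00 ± 0.86 (adjusted p = 0.00197). The liver with 30.4 CPM carried part of these sizes: without replicate 2 of wild-type PBS-CCl4 the CCl4 rise was 3.32, the T3 effect -1.90, the genotype difference 3.05 and the injury difference -3.26 on the log2 scale, all still called, and the injury difference was -3.19 without replicate 4 of wild-type T3-oil. Knockout against wild type on PBS and CCl4 missed the threshold at -1.63 ± 0.55 (adjusted p = 0.108) and passed it without replicate 4 of the wild-type group (adjusted p = 0.00793, with 0.00793 to 0.705 over the alternatives).

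Ccl7 (ENSMUSG00000035373, chromosome 11, 82045712 to 82047525, plus strand), the neighbour of Ccl2 and a second CCR2 ligand that mobilizes monocytes, was near the limit of detection in oil livers. After oil and PBS it stood at 0.169, 0.274, 0.21 and 0.157 CPM in wild type and at 0.1, 0, 0.132 and 0.118 CPM in knockouts, where the count of 0 allows up to 0.185 CPM (3 counts). After CCl4 on PBS it stood at 3.45, 47.5, 4.47 and 0.202 CPM in wild type and at 1.33, 0.578, 1.99 and 0.813 CPM in knockouts. Replicate 2 of the wild type was far above the others, and replicate 4 lay within the oil range. After T3, oil livers held 0.189, 0.251, 0.276 and 0.527 CPM in wild type and 0.103, 0.177, 0.197 and 0.114 CPM in knockouts. CCl4 livers on T3 held 1.03, 0.523, 0.323 and 0.708 CPM in wild type and 3.66, 4.17, 4.7 and 5.69 CPM in knockouts. The 4 knockout livers were thus tightly grouped and all above the wild-type livers. Group means ran from 0.0876 to 13.9 CPM, and the only neighbours in that order without overlap were again knockout PBS-CCl4 (1.18) and knockout T3-CCl4 (4.55).

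The CCl4 effect on Ccl7 was 6.06 ± 0.94 in wild type on PBS (adjusted p = 1.53e-05), 3.62 ± 1.10 in knockouts on PBS (adjusted p = 0.0148) and 4.88 ± 0.97 in knockouts on T3 (adjusted p = 3.53e-04). In wild type on T3 it was 1.02 ± 0.94 (95% interval -0.83 to 2.87). T3 lowered Ccl7 in injured wild-type livers (-4.42 ± 0.82, adjusted p = 9.49e-05). In injured knockouts the T3 value was 1.92 ± 0.73 (adjusted p = 0.17). The T3 response in injured livers differed between genotypes by 6.35 ± 1.09 (adjusted p = 1.40e-04). The wild-type T3 response differed between CCl4 and oil by -5.04 ± 1.37 (adjusted p = 0.00992, and 0.0526 with only those groups in the fit). On T3 and CCl4, Ccl7 was 7.03-fold higher in knockouts (adjusted p = 0.0105), and on PBS and CCl4 it was 11.6-fold lower in knockouts (-3.53 ± 0.76, adjusted p = 0.0131). That last call rested on 1 liver: without replicate 2 of wild-type PBS-CCl4 the value was -1.20 (adjusted p = 0.396), and it was also lost without replicate 2 or 4 of the knockout group (0.0567 and 0.0677), with the replicate block (0.061) and with only those groups in the fit (0.698), over a range of 1.56e-04 to 0.698. Without the same wild-type liver the CCl4 effect was 3.71, the T3 effect -2.09 (adjusted p = 0.00361), the genotype difference 4.01 (adjusted p = 2.76e-04) and the injury difference -2.69 (adjusted p = 0.0382), and over their alternatives the highest adjusted p was 1.55e-04, 0.0345, 0.00863 and 0.0526 for these 4 values. For the CCl4 effect these alternatives leave out the fit of only those groups, in which Ccl7 was not tested. The knockout CCl4 effect on PBS was lost without replicate 3 of knockout PBS-CCl4 (adjusted p = 0.0584, the highest of the alternatives, which began at 0.00137).

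Ccl6 (ENSMUSG00000018927, chromosome 11, 83587882 to 83593087, minus strand), a macrophage and neutrophil chemokine that is found in rodents, followed another course and was higher on T3 in both genotypes. On PBS and oil it stood at 4.72, 4.88, 3.83 and 3.87 CPM in wild type and 3.61, 4.5, 4.57 and 4.97 CPM in knockouts. T3 livers given oil held 39.1, 27.8, 27.1 and 57.0 CPM in wild type and 18.8, 17.7, 23.7 and 22.5 CPM in knockouts. None of the T3 livers overlapped a PBS liver of its genotype, and the wild-type T3 livers lay above the knockout T3 livers. CCl4 livers on PBS held 20.5, 40.9, 24.6 and 36 CPM in wild type and 20.7, 32.1, 25.8 and 16.6 CPM in knockouts. CCl4 livers on T3 held 44.1, 49.5, 51.6 and 32.7 CPM in wild type and 76.3, 81.7, 63.6 and 70.0 CPM in knockouts, where the order of the genotypes was the opposite of that on oil. Across the 8 group means, gaps without overlap lay between knockout PBS-oil (4.41) and knockout T3-oil (20.7) and between wild-type T3-CCl4 (44.5) and knockout T3-CCl4 (72.9).

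On oil, T3 raised Ccl6 8.73-fold in wild type (3.13 ± 0.24, adjusted p = 8.03e-11) and 4.69-fold in knockouts (2.23 ± 0.24, adjusted p = 2.24e-07). The genotype difference of -0.90 ± 0.33 was not called (adjusted p = 0.0754). It passed with only those groups in the fit (0.0375) and without replicate 2 or 3 of wild-type T3-oil (0.0401 and 0.0476), range 0.0375 to 0.194. CCl4 raised it by 2.82 ± 0.24 in wild type on PBS (adjusted p = 9.66e-09), by 2.43 ± 0.24 in knockouts on PBS (adjusted p = 1.42e-07) and by 1.82 ± 0.23 in knockouts on T3 (adjusted p = 1.82e-06), with 0.24 ± 0.22 in wild type on T3 (95% interval -0.19 to 0.66). In injured livers T3 raised it by 1.62 ± 0.22 in knockouts (adjusted p = 1.14e-04) and by 0.54 ± 0.22 in wild type (adjusted p = 0.0462), with a genotype difference of 1.07 ± 0.31 (adjusted p = 0.0127). The small wild-type value lost its call with total-count scaling (0.466), no filter (0.09), only those groups in the fit (0.114), and without replicate 1 or 3 of wild-type PBS-CCl4 (0.17 and 0.132) or replicate 1, 2 or 3 of wild-type T3-CCl4 (0.0645, 0.0985 and 0.117), over a range of 0.0161 to 0.466. The genotype difference in the CCl4 response on T3 was 1.58 ± 0.31 (adjusted p = 0.0023), and the injury difference in the wild-type T3 response was -2.58 ± 0.32 (adjusted p = 8.60e-06). Knockouts were lower than wild type on T3 and oil (-0.87 ± 0.22, adjusted p = 0.00714) and higher on T3 and CCl4 (0.71 ± 0.22, adjusted p = 0.0179). The former was lost without replicate 4 of wild-type T3-oil (0.0598, range 0.0022 to 0.0598) and the latter without replicate 2 of knockout T3-CCl4 or replicate 4 of wild-type T3-CCl4 (0.0531 and 0.079, range 0.00385 to 0.079).

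The CXC ligands Cxcl1 and Cxcl10 lie on chromosome 5 and are both known targets of NF-kappa B, the factor activated downstream of CD14 and TLR4, and Cxcl10 is also a target of interferon signalling. Promoter windows from the RefSeq table for GRCm38.p6 were searched for 7 of the 10 genes (8 windows of 250 bases before to 50 after the start). Windows of Ccl2, Ccl7 and Cd14 were not searched, so motifs in them were not tested. The 250 bases before the start sites of Cxcl1 and Cxcl10 are shown because, of the 7 genes searched, only these held a kappa B consensus match. Capitals mark the kappa B matches and the interferon-stimulated response element (ISRE) core, searched as GAAA, any 2 bases, GAAA.
Cxcl1, chr5:90890995-90891244, plus strand: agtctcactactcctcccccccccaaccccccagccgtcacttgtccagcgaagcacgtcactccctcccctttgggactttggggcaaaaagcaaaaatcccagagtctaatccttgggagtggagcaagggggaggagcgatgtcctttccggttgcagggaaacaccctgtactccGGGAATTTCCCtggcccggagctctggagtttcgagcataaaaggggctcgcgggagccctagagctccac
Cxcl10, chr5:92348890-92349139, minus strand: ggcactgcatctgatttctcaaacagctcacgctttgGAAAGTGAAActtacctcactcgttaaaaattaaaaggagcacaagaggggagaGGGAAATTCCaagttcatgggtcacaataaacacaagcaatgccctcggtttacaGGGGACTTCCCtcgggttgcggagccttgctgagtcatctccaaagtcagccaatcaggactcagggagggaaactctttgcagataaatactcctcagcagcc
In Cxcl1 the kappa B match lay at -71 to -62, with an overlapping match on the other strand at -70 to -61. In Cxcl10 kappa B matches lay at -159 to -150 and -104 to -95, the latter overlapped by matches at -103 to -94, and the ISRE core lay at -213 to -204. An AP-1 motif (TGANTCA) was found in Cxcl10 at -74 to -68. Both strands were searched, and among 32851 promoter windows of the same length 8.46% held a kappa B match, 3.44% an ISRE core, 7.81% an AP-1 motif, 16.3% a thyroid hormone receptor half-site (AGGTCA) and 13.6% a TATA box (TATAAA). The half-site occurred in the windows of Ccl6 (-88 to -83) and Cxcl14 (-130 to -125), the latter also with an ISRE core at -172 to -163, and none of the 5 motifs occurred in the windows of Ccr2, Cx3cr1 or Ly6c2. A match describes letters, not binding.

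Cxcl1 (ENSMUSG00000029380, 90891241 to 90893115, plus strand) encodes an ELR chemokine that attracts neutrophils through CXCR2. PBS livers given oil held 10.1, 25.1, 5.56 and 5.96 CPM in wild type and 3.51, 3.89, 7.35 and 2.01 CPM in knockouts. T3 livers given oil held 0.708, 1.31, 1.47 and 2.81 CPM in wild type and 7.9, 7.16, 7.64 and 3.42 CPM in knockouts. The wild-type T3 livers were all below each PBS liver of the same genotype. PBS livers given CCl4 held 31.7, 18.5, 42 and 5.9 CPM in wild type and 11.3, 8.23, 31.2 and 8.49 CPM in knockouts. T3 livers given CCl4 held 4.85, 3.26, 2.14 and 2.18 CPM in wild type and 5.77, 14.1, 35.1 and 106 CPM in knockouts. The wild-type values were again all below those of the PBS livers, and the knockout values spanned the widest range of the 8 groups for Cxcl1. Group means ran from 1.57 CPM (wild type, T3 and oil) to 40.3 CPM (knockout, T3 and CCl4), and each pair of neighbours in that order overlapped.

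T3 lowered Cxcl1 in wild type on oil (-2.87 ± 0.74, 7.32-fold, adjusted p = 0.00306) and on CCl4 (-2.98 ± 0.71, 7.89-fold, adjusted p = 0.00138), with an injury difference of -0.11 ± 1.01 whose 95% interval, -2.10 to 1.88, was wide. In knockouts the T3 values were 0.63 ± 0.69 on oil and 1.44 ± 0.65 on CCl4 (adjusted p = 0.585 and 0.263). The genotype difference in the T3 response was 3.50 ± 1.01 on oil (adjusted p = 0.0213) and 4.42 ± 0.96 on CCl4 (adjusted p = 0.00142). Without replicate 2 of wild-type PBS-oil (25.1 CPM) the oil values were -2.17 for T3 in wild type (adjusted p = 0.0254, the highest of alternatives from 2.28e-04) and 2.79 for the genotype difference (adjusted p = 0.0769), a call also lost without replicate 1 of wild-type T3-oil (0.0506, range 0.00216 to 0.0769). On T3 and CCl4 knockouts stood above wild type by 3.69 ± 0.73 (adjusted p = 5.05e-04), which was 2.56 without replicate 4 of the knockouts (0.00574, range 3.04e-06 to 0.00653). Without that liver, with 106 CPM, the genotype difference on CCl4 was 3.28 (0.0074, range 1.08e-04 to 0.0143), and without replicate 3 of knockout PBS-CCl4 it was 5.09.

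CCl4 raised Cxcl1 in knockouts on T3 (2.62 ± 0.68, adjusted p = 0.00362) and on PBS (1.81 ± 0.68, adjusted p = 0.044). The first became 1.49 without replicate 4 of knockout T3-CCl4 (adjusted p = 0.0625, range 8.55e-04 to 0.0625). The second became 1.14 without replicate 3 of knockout PBS-CCl4 (adjusted p = 0.253) and was also lost without replicate 1 of that group (0.0505), without replicate 1, 2 or 4 of knockout PBS-oil (0.0962, 0.0859 and 0.124) and with the replicate block (0.0583), over a range of 0.0128 to 0.253. In wild type the CCl4 value was 1.07 ± 0.65 on PBS (adjusted p = 0.178) and 0.97 ± 0.76 on T3 (adjusted p = 0.638), and the former passed without replicate 2 of wild-type PBS-oil (0.0462, range 0.0462 to 0.432). So for Cxcl1 the calls on CCl4 varied with single livers, more than those on T3 in wild type.

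Cxcl10 (ENSMUSG00000034855, 92346638 to 92348889, minus strand) overlaps Art3 on the opposite strand, and since the strand setting of the counting is not known, reads of the pair cannot be told apart. Art3 itself was counted at 0.889 to 1.14 CPM in wild-type PBS-oil livers, 0.601 to 4.0 CPM on PBS and CCl4 and 2.22 to 3.68 CPM on T3 and oil. In knockouts it stood at 0.903 to 1.1, 0.645 to 3.8 and 3.19 to 5.02 CPM in the same order, so Art3 too was higher on T3 and oil in both genotypes. Cxcl10 on PBS and oil stood at 1.52, 1.26, 1.6 and 1.73 CPM in wild type and 2.26, 1.85, 1.76 and 1.77 CPM in knockouts. T3 livers given oil held 6.84, 6.39, 6.62 and 14.2 CPM in wild type and 7.95, 5.74, 7.04 and 8.09 CPM in knockouts, all above the PBS livers. CCl4 livers on PBS held 19.3, 13.4, 24.4 and 2.99 CPM in wild type and 7.88, 3.8, 4.98 and 7.23 CPM in knockouts. CCl4 livers on T3 held 6.62, 5.7, 4.72 and 5.61 CPM in wild type and 4.36, 7.86, 14.9 and 25.5 CPM in knockouts. After CCl4, 3 of the 4 wild-type livers on PBS were thus above all wild-type livers on T3, and replicate 4 was below them. In the order of group means, overlap was absent between wild-type PBS-oil (1.53) and knockout PBS-oil (1.91) and between the latter and wild-type T3-CCl4 (5.66), and the highest mean was 15 CPM in wild-type PBS-CCl4.

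In both genotypes T3 on oil raised Cxcl10, by 2.47 ± 0.47 in wild type (5.55-fold, adjusted p = 1.34e-04) and 1.91 ± 0.46 in knockouts (3.76-fold, adjusted p = 0.00412). CCl4 on PBS raised it by 3.29 ± 0.48 in wild type (adjusted p = 7.15e-06) and 1.64 ± 0.46 in knockouts (adjusted p = 0.00902). On T3 the CCl4 values were -0.59 ± 0.43 in wild type (adjusted p = 0.602) and 0.86 ± 0.42 in knockouts (adjusted p = 0.107, and 0.0277 without replicate 1 of knockout T3-CCl4, range 0.0277 to 0.567). In injured wild-type livers the direction was the reverse of that on oil: T3 lowered Cxcl10 by 1.41 ± 0.43 on the log2 scale (signed value -1.41, adjusted p = 0.00961), and the injury difference was -3.88 ± 0.64 (adjusted p = 1.81e-04). The lowering was not called without replicate 3 of wild-type PBS-CCl4 (0.0512) or with only those groups in the fit (0.0621), over a range of 3.11e-04 to 0.0621. T3 in injured knockouts gave 1.13 ± 0.43 (adjusted p = 0.165), and the genotype difference was 2.54 ± 0.60 (adjusted p = 0.00306). Knockout against wild type on T3 and CCl4 was 1.21 ± 0.43 (adjusted p = 0.0407). It lost its call without replicate 3 or 4 of the knockouts (0.0939 and 0.276), without any of the wild-type replicates 1 to 4 (0.0561, 0.0798, 0.105 and 0.0836), with the replicate block (0.0606) and with only those groups in the fit (0.0603), over a range of 0.00998 to 0.276. On PBS and CCl4 the knockout value of -1.33 ± 0.43 (adjusted p = 0.0898) passed without replicate 4 of the wild type (0.0051) and in DESeq2 (0.0384), range 0.0051 to 0.705.

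Cxcl14 (ENSMUSG00000021508, chromosome 13, 56288643 to 56296551, minus strand), a chemokine of epithelia and stroma that acts on monocytes and dendritic cells, was scarce in PBS-oil livers. They held 0.169, 0.713, 0.168 and 0 CPM in wild type and 0.301, 0.432, 0.264 and 0.177 CPM in knockouts, and the count of 0 allows up to 0.157 CPM. T3 livers given oil held 1.37, 3.27, 2.71 and 9.09 CPM in wild type and 3.82, 3.02, 1.63 and 1.37 CPM in knockouts. Both T3 groups were wholly above the PBS groups. CCl4 livers on PBS held 3.53, 4.74, 2.18 and 2.18 CPM in wild type and 1.72, 3.9, 1.44 and 4.43 CPM in knockouts. CCl4 livers on T3 held 3.73, 4.77, 2.98 and 5.67 CPM in wild type and 10.4, 8.57, 9.0 and 8.15 CPM in knockouts. The last group stood apart from each other CCl4 group. Knockout against wild type on T3 and CCl4 was nevertheless not called, and passed only with those groups alone in the fit (adjusted p = 0.00273). By group mean, the 2 steps without overlap were from knockout PBS-oil (0.293) to knockout T3-oil (2.46) and from wild-type T3-CCl4 (4.29) to knockout T3-CCl4 (9.03).

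With oil, T3 raised Cxcl14 by 3.98 ± 0.61 in wild type (adjusted p = 8.20e-06) and 3.05 ± 0.62 in knockouts (adjusted p = 7.71e-04). CCl4 raised it by 3.59 ± 0.62 in wild type on PBS (adjusted p = 4.94e-05), 3.26 ± 0.61 in knockouts on PBS (adjusted p = 3.32e-04) and 1.88 ± 0.48 in knockouts on T3 (adjusted p = 0.00325). For wild type on T3 the CCl4 value was 0.05 ± 0.47 (95% interval -0.87 to 0.97). The injury difference in the wild-type T3 response was -3.54 ± 0.78 (adjusted p = 0.00237). The sizes moved with 2 livers: without replicate 2 of wild-type PBS-oil (0.713 CPM) the T3 value was 5.10, the CCl4 value 4.71 and the injury difference -4.66, and without replicate 4 of wild-type T3-oil (9.09 CPM) the T3 value was 3.23 and the injury difference -2.79. T3 in injured livers gave 0.44 ± 0.47 in wild type and 1.66 ± 0.47 in knockouts (adjusted p = 0.475 and 0.0557), and their difference of 1.22 ± 0.66 did not pass (adjusted p = 0.188). The knockout value passed with the replicate block (0.0331) and in DESeq2 (0.0188), over a range of 0.0188 to 0.172.

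**Figure D2:**
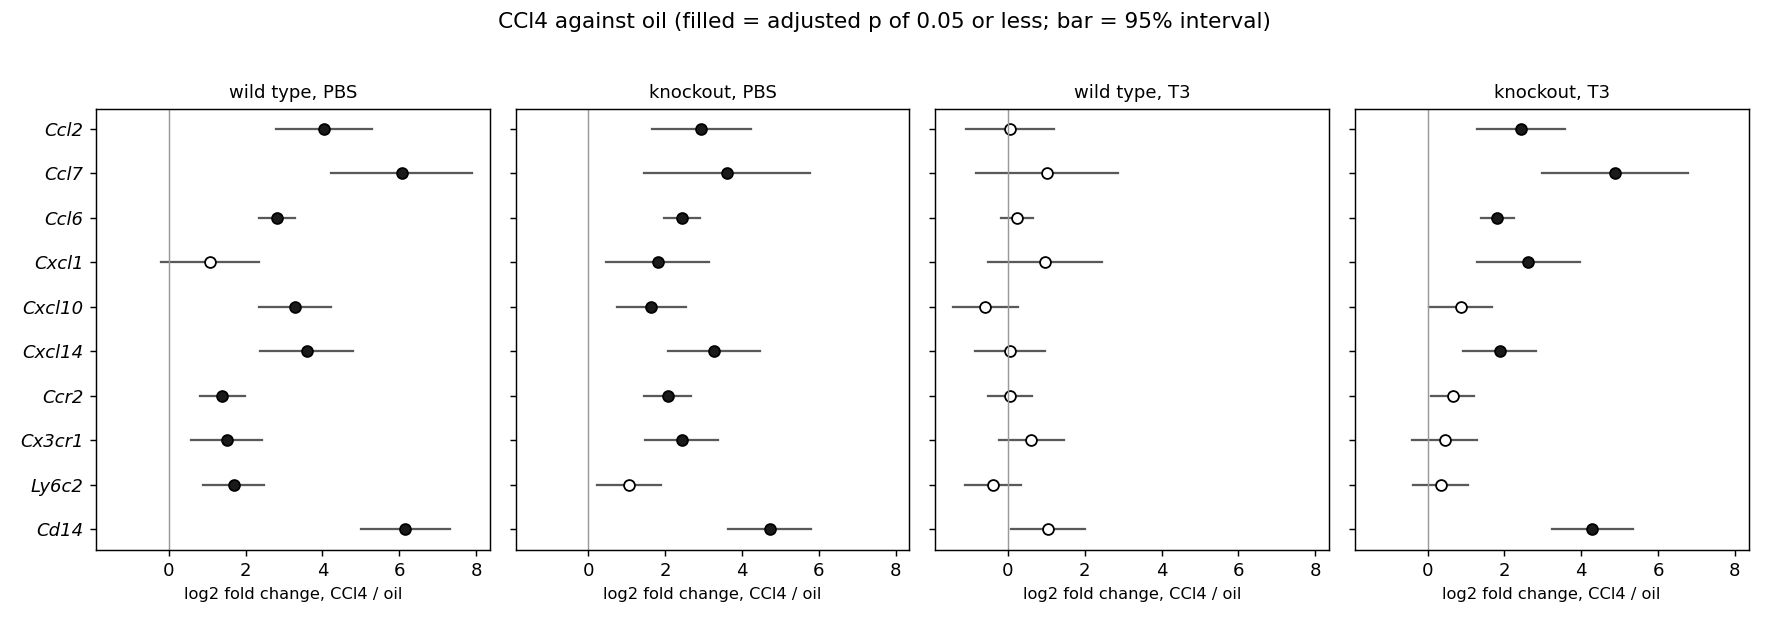
Log2 fold change of CCl4 against oil for each of the 10 genes in wild type and knockout on PBS and on T3, with lines for 95% intervals and filled points for calls. The wild-type T3 values lay between -0.59 and 1.04 with no call, whereas Cd14 reached 6.16 and Ccl7 6.06 in wild type on PBS.

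Ccr2 (ENSMUSG00000049103, chromosome 9, 124101950 to 124113557, plus strand) encodes the receptor for CCL2 and CCL7 and marks classical monocytes. PBS-oil livers held 2.36, 3.18, 1.73 and 3.09 CPM in wild type and 1.56, 1.6, 2.2 and 2.13 CPM in knockouts. T3-oil livers held 3.35, 2.72, 5.47 and 9.31 CPM in wild type and 3.97, 5.86, 5.67 and 3.65 CPM in knockouts. T3 livers were separate from PBS livers in knockouts and overlapped them in wild type. PBS-CCl4 livers held 7.33, 6.14, 5.75 and 7.88 CPM in wild type and 6.37, 8.57, 6.79 and 9.76 CPM in knockouts. T3-CCl4 livers held 3.77, 5.18, 5.73 and 7.14 CPM in wild type and 8.37, 6.53, 10.1 and 4.93 CPM in knockouts. All 4 CCl4 groups overlapped one another, in contrast to the CCR2 ligands in the same livers. Group means ran only from 1.87 to 7.87 CPM, and of the neighbours just wild-type PBS-oil (2.59) and knockout T3-oil (4.79) were free of overlap. In whole liver, more cells of a type and more RNA per cell cannot be told apart, which holds for every result here.

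CCl4 on PBS raised Ccr2 by 1.39 ± 0.30 in wild type (2.62-fold, adjusted p = 4.83e-04) and by 2.06 ± 0.31 in knockouts (4.18-fold, adjusted p = 2.65e-05). T3 on oil raised it by 1.02 ± 0.30 in wild type (adjusted p = 0.00876) and 1.35 ± 0.31 in knockouts (adjusted p = 0.0025), the former lost without replicate 4 of wild-type T3-oil (0.114, range 0.00179 to 0.114). In injured livers the T3 values were -0.31 ± 0.29 in wild type and -0.06 ± 0.28 in knockouts, with 95% intervals of -0.88 to 0.25 and -0.62 to 0.49. The genotype difference in that response was 0.25 ± 0.40, with a 95% interval of -0.54 to 1.04 that leaves out the 3.77 measured for its ligand Ccl2. The injury difference in the T3 response was of similar size in both genotypes, -1.33 ± 0.41 in wild type (adjusted p = 0.021) and -1.41 ± 0.42 in knockouts (adjusted p = 0.0539). The knockout value was called in DESeq2 (0.0275) and with only those groups in the fit (0.0265). It was also called without replicate 1 or 3 of knockout PBS-CCl4 (0.048 and 0.0469) or replicate 3 of knockout T3-CCl4 (0.0405). The wild-type call was lost without replicate 3 of wild-type PBS-oil (0.0534), without replicate 4 of wild-type T3-oil (0.0908) and with only those groups in the fit (0.0557), range 0.00313 to 0.0908. CCl4 in knockouts on T3 gave 0.65 ± 0.29 (adjusted p = 0.0732). It was called without replicate 4 of knockout T3-CCl4 (0.0377), with total-count scaling (0.038) and with only those groups in the fit (0.0483), range 0.0377 to 0.252.

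Cx3cr1 (ENSMUSG00000052336, chromosome 9, 119901616 to 120069879, minus strand) encodes the fractalkine receptor of patrolling monocytes and of macrophages that have matured in tissue. It overlaps Gm33858 on the opposite strand, a gene counted at 0 to 0.316 CPM. PBS-oil livers held 0.619, 1.54, 0.421 and 0.784 CPM in wild type and 0.652, 0.308, 0.748 and 0.709 CPM in knockouts. T3-oil livers held 1.18, 1.61, 2.48 and 3.6 CPM in wild type and 1.81, 2.84, 2.07 and 2.28 CPM in knockouts. PBS-CCl4 livers held 2.52, 0.907, 1.5 and 4.56 CPM in wild type and 3.47, 3.71, 1.92 and 4.2 CPM in knockouts. Replicate 4 of the wild type, which had the least Ccl2, Ccl7 and Cd14 in its group, had the most Cx3cr1 and Ccr2. T3-CCl4 livers held 1.49, 3.66, 2.46 and 6.05 CPM in wild type and 3.79, 3.29, 3.22 and 1.9 CPM in knockouts. Group means ran from 0.604 to 3.42 CPM, and neighbours in that order overlapped at each step.

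CCl4 on PBS raised Cx3cr1 by 1.51 ± 0.47 in wild type (adjusted p = 0.00996) and 2.43 ± 0.48 in knockouts (adjusted p = 6.01e-04). T3 on oil raised it by 1.42 ± 0.47 in wild type (adjusted p = 0.0199) and 1.87 ± 0.49 in knockouts (adjusted p = 0.00779). Both wild-type calls depended on single livers. The CCl4 call was lost without replicate 4 of wild-type PBS-CCl4 (0.0794) and with only those groups in the fit (0.0612), range 0.00152 to 0.0794. The T3 call was lost without replicate 1 or 3 of wild-type PBS-oil (0.0562 and 0.0787) or replicate 4 of wild-type T3-oil (0.0986), range 0.00638 to 0.0986. In injured livers T3 gave 0.52 ± 0.43 in wild type and -0.12 ± 0.42 in knockouts, and the genotype difference of -0.63 ± 0.60 had a 95% interval of -1.81 to 0.55.

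Ly6c2 (ENSMUSG00000022584, chromosome 15, 75108158 to 75111970, minus strand) encodes the Ly6C antigen that marks inflammatory monocytes, and its near-identical neighbour Ly6c1 makes the split of reads between them uncertain. Its levels were low: 0.506, 0.658, 0.295 and 0.575 CPM in wild-type and 0.602, 0.37, 0.264 and 0.355 CPM in knockout PBS-oil livers. T3-oil livers held 0.944, 0.956, 0.874 and 2.85 CPM in wild type and 0.774, 1.48, 2.07 and 1.6 CPM in knockouts, above the PBS livers in each genotype. PBS-CCl4 livers held 1.28, 2.31, 1.97 and 0.969 CPM in wild type and 0.716, 1.01, 0.517 and 1.13 CPM in knockouts. T3-CCl4 livers held 1.3, 0.872, 1.05 and 1.09 CPM in wild type and 1.37, 2.09, 2.55 and 1.45 CPM in knockouts. The knockout livers were thus the lower ones on PBS and CCl4, with overlap, and the higher ones on T3 and CCl4, without it. Neither difference was called, and the latter passed only with those groups alone in the fit (adjusted p = 0.0458). Group means ran from 0.398 to 1.86 CPM with overlap between all neighbours.

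CCl4 on PBS raised Ly6c2 by 1.69 ± 0.40 in wild type (adjusted p = 0.00122), with 1.06 ± 0.43 in knockouts (adjusted p = 0.0571). The knockout value passed without replicate 1 of knockout PBS-oil (0.0418) and with total-count scaling (0.0174), range 0.0174 to 0.162. T3 on oil raised it by 1.88 ± 0.42 in knockouts (adjusted p = 0.00194) and 1.48 ± 0.40 in wild type (adjusted p = 0.0049). The latter was 0.87 without replicate 4 of wild-type T3-oil (0.0794, range 0.00243 to 0.0794). T3 in injured livers gave -0.59 ± 0.37 in wild type (adjusted p = 0.204, and 0.0405 with total-count scaling) and 1.16 ± 0.37 in knockouts (adjusted p = 0.0941). Neither passed alone in the main fit, and the difference between them did (1.75 ± 0.53, adjusted p = 0.0166). The injury difference in wild type was -2.07 ± 0.55 (adjusted p = 0.00833), and -1.46 without replicate 4 of wild-type T3-oil (0.0404, range 0.00124 to 0.0404).

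Cd14 (ENSMUSG00000051439, chromosome 18, 36725067 to 36726798, minus strand) encodes the lipopolysaccharide co-receptor of monocytes and macrophages, which injured hepatocytes can also make. PBS-oil livers held 3.15, 4.06, 1.81 and 2.56 CPM in wild type and 4.31, 5.3, 2.29 and 2.9 CPM in knockouts. T3-oil livers held 6.37, 6.49, 6.49 and 10.8 CPM in wild type and 3.82, 4.02, 6.4 and 7.35 CPM in knockouts. Oil livers of every kind thus stayed at or under 10.8 CPM. PBS-CCl4 livers held 184, 487, 113 and 38.1 CPM in wild type and 98.8, 66.8, 167 and 53.9 CPM in knockouts. T3-CCl4 livers held 15.3, 21.8, 15.8 and 9.26 CPM in wild type and 53.2, 128, 142 and 100 CPM in knockouts. Among injured livers the wild-type T3 group was lower than each of the other 3 groups without overlap. The only neighbours by mean without overlap were wild-type T3-CCl4 (15.6) and knockout PBS-CCl4 (96.7).

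CCl4 raised Cd14 71.4-fold in wild type on PBS (6.16 ± 0.59, adjusted p = 4.02e-08), 26.3-fold in knockouts on PBS (4.72 ± 0.55, adjusted p = 1.12e-06) and 19.6-fold in knockouts on T3 (4.29 ± 0.54, adjusted p = 2.07e-06). On T3 in wild type the value was 1.04 ± 0.49 (adjusted p = 0.31), called with only those groups in the fit (0.0408, range 0.0408 to 0.57). T3 lowered Cd14 13.2-fold in injured wild-type livers (-3.72 ± 0.51, adjusted p = 1.99e-06), against 0.13 ± 0.46 in injured knockouts (95% interval -0.77 to 1.03), and the genotype difference was 3.85 ± 0.67 (adjusted p = 1.68e-04). The genotype difference in the CCl4 response on T3 was 3.25 ± 0.70 (adjusted p = 0.00453), knockouts stood 6.80-fold above wild type on T3 and CCl4 (adjusted p = 1.81e-04), and the injury difference in wild type was -5.11 ± 0.72 (adjusted p = 3.75e-05). Without replicate 2 of wild-type PBS-CCl4 (487 CPM) the CCl4 effect was 5.29, the T3 effect -2.86 (adjusted p = 7.81e-06, range 3.99e-14 to 0.00509), the genotype difference in the T3 response 2.99 and the injury difference -4.24. T3 on oil raised Cd14 slightly in wild type (1.39 ± 0.52, adjusted p = 0.0394), a call lost without replicate 1, 3 or 4 of wild-type PBS-oil (0.062, 0.114 and 0.082) or replicate 4 of wild-type T3-oil (0.117), range 0.002 to 0.117, and gave 0.56 ± 0.52 in knockouts (adjusted p = 0.514). Knockout against wild type on PBS and CCl4 was -1.09 ± 0.46 (adjusted p = 0.209), and passed without replicate 4 of the wild type (0.0235, range 0.0235 to 0.923).

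Levels were also set against one another per kilobase of annotated exon, with all exons of a gene joined, which can exceed the length of a single transcript. Mean levels in wild-type PBS-CCl4 livers were 119 CPM per kb for Cd14, 17.3 for Ccl7, 17 for Ccl6, 13.1 for Cxcl1, 12.1 for Ccl2, 6.67 for Cxcl10 and 1.73 for Cxcl14. The receptors and Ly6c2 stood lower, at 1.0 CPM per kb for Ccr2, 0.595 for Ly6c2 and 0.527 for Cx3cr1. Without replicate 2 the means per kb were 64.6 for Cd14, 15.1 for Ccl6, 14.2 for Cxcl1, 7.23 for Ccl2, 6.91 for Cxcl10 and 3.37 for Ccl7, so the place of Ccl7 rested on that liver. On T3 and CCl4 in wild type the highest was Ccl6, at 24.8 CPM per kb, ahead of Cd14 at 8.98.

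**Figure D3:**
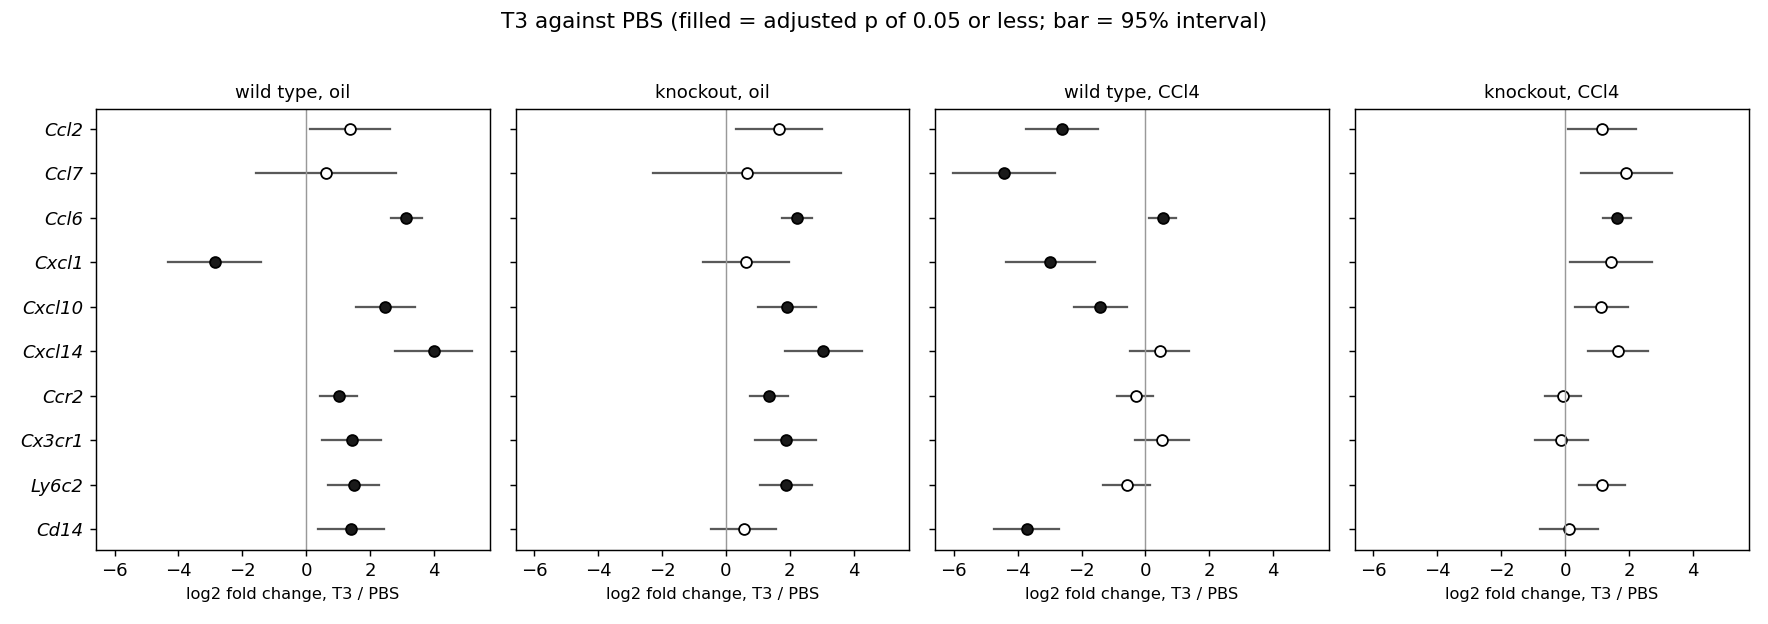
Log2 fold change of T3 against PBS for each gene in wild type and knockout, on oil and on CCl4, with lines for 95% intervals and filled points for calls. In wild type Cxcl10 was higher on T3 after oil (2.47) and lower on T3 after CCl4 (-1.41), while Cxcl1 was lower in both settings.

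Counted over the 10 genes, CCl4 called 9 higher and 0 lower in wild type on PBS, where 46.2% of all tested genes were called in either direction and 24.6% were higher. Cxcl1 was the gene that did not pass. With only those groups in the fit, 9 of the 10 were tested and 7 were called, all higher, beside 2512 of 14318 genes higher. In knockouts on PBS it called 9 higher and 0 lower, all but Ly6c2, against 31.1% of all genes called and 17.8% higher. In wild type on T3, edgeR called 0 of 10 (Cd14 alone had an unadjusted p at or under 0.05, DESeq2 also called 0, and edgeR with only those groups in the fit called 1, Cd14), where 3.4% of all genes were called. In knockouts on T3 it called 6 higher and 0 lower, namely Ccl2, Ccl7, Ccl6, Cxcl1, Cxcl14 and Cd14, against 39.6% called and 19.7% higher. The median log2 fold change of the 10 was 3.06, 2.43, 0.15 and 1.85 in these 4 comparisons, beside 0.04, 0.04, -0.01 and -0.00 over all genes. Scaled by total counts alone, the median over all genes was 0.43, 0.35, -0.09 and 0.16, and the share of all calls that were higher went from 53.2% to 81.8%, from 57.1% to 86.3%, from 49% to 24.4% and from 49.9% to 64.3%.

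T3 on oil called 7 higher and 1 lower (Cxcl1) in wild type, where 35.3% of all genes were called and 19.0% were higher, and 6 higher and 0 lower in knockouts, where 18.7% were called and 10.6% were higher. Those 6 were Ccl6, Cxcl10, Cxcl14, Ccr2, Cx3cr1 and Ly6c2. The wild-type count of 8 dropped to 4 without replicate 4 of wild-type T3-oil. On CCl4, T3 called 5 lower and 1 higher in wild type, where 41.7% were called and 21.7% were lower: Ccl2, Ccl7, Cxcl1, Cxcl10 and Cd14 fell and Ccl6 rose. In injured knockouts it called 1, Ccl6, which rose, where 2.54% of all genes were called. The medians of the 10 were 1.40, 1.77, -1.0 and 1.15, beside -0.02, 0.01, -0.06 and -0.03 over all genes. With total counts alone the median over all genes was 0.10, 0.06, -0.42 and -0.13, and the share of calls that were higher went from 54% to 67.1%, from 56.7% to 70.6%, from 47.9% to 20.3% and from 69.7% to 44.2%.

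Knockout against wild type called 0 of 10 on PBS and oil in edgeR (Cxcl1 alone at an unadjusted p at or under 0.05, and 0 in DESeq2), where 0.538% of all genes were called. On PBS and CCl4 it called 1, Ccl7, lower in knockouts, with a background of 2.25%, and DESeq2 called 2, with Cxcl10 (0.0384). This count was 0 without replicate 2 or 4 of knockout PBS-CCl4 or replicate 2 of wild-type PBS-CCl4, and 4 without replicate 4 of wild-type PBS-CCl4. On T3 and oil it called 1, Ccl6, lower in knockouts, with a background of 16.3%, and 0 without replicate 4 of wild-type T3-oil. Cxcl1 stood there at 2.04 ± 0.74, 4.11-fold higher in knockouts without overlap (adjusted p = 0.0573), and was called by DESeq2 (0.0249) and with only those groups in the fit (0.00312), over a range of 0.00312 to 0.158. On T3 and CCl4 it called 6 higher and 0 lower, with backgrounds of 22.9% called and 10.4% higher: Ccl2, Ccl7, Ccl6, Cxcl1, Cxcl10 and Cd14. The medians of the 10 were -0.39, -0.84, -0.24 and 1.14, beside -0.02, -0.01, -0.00 and 0.02 over all genes. With total counts alone the median over all genes was -0.12, -0.11 and 0.17 in the last 3 of these comparisons, and the share of higher calls went from 53.8% to 30.1%, from 43.7% to 29.2% and from 45.5% to 61.1%.

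The differences between responses were tested directly. The T3 response on CCl4 differed between genotypes for 7 of the 10 genes, each with the larger value in knockouts (Ccl2, Ccl7, Ccl6, Cxcl1, Cxcl10, Ly6c2 and Cd14), where 22.7% of all genes were called and 10.3% in that direction. The T3 response on oil differed for 1, Cxcl1, with a background of 12.2%, a count of 0 without replicate 2 of wild-type PBS-oil or replicate 1 of wild-type T3-oil and of 2 without replicate 2 or 3 of wild-type T3-oil. The gene added there was Ccl6, with the smaller value in knockouts, opposite to Cxcl1. The CCl4 response on PBS differed between genotypes for 0 in edgeR (Cxcl10 alone at an unadjusted p at or under 0.05, and 0 in DESeq2), with a background of 0.0192%. On T3 it differed for 2, Ccl6 and Cd14, with a background of 13.5%, and for 4 without replicate 1 of wild-type T3-oil. DESeq2, total-count scaling and the fit of only those groups each called 5. These settings also called more of all tested genes, in DESeq2 1292 higher and 1394 lower in place of 967 and 1132. Ccl2 stood at 2.37 ± 0.82 (adjusted p = 0.0524, range 0.00996 to 0.214), Ccl7 at 3.86 ± 1.42 (0.066, range 3.11e-04 to 0.162) and Cxcl14 at 1.82 ± 0.67 (0.066, range 0.033 to 0.269). Within wild type the T3 response was lower on CCl4 than on oil for 8 genes and higher for 0, with backgrounds of 23.9% called and 13.1% lower. Cxcl1 and Cx3cr1 did not pass. Within knockouts it differed for 0 in edgeR (Ccr2 and Cx3cr1 had unadjusted p-values at or under 0.05, and DESeq2 called 2), with a background of 3.71%, and for 1 without replicate 1 or 3 of knockout PBS-CCl4 or replicate 3 of knockout T3-CCl4. Under total-count scaling the median over all genes was 0.30 for the genotype difference in the T3 response on CCl4, 0.28 for that in the CCl4 response on T3, -0.53 for the wild-type injury difference and -0.19 for the knockout one. The shares of higher calls were then 67.8% in place of 45.3%, 73.2% in place of 46.1%, 10.3% in place of 45.2% and 11.2% in place of 31%. These comparisons share groups, so their counts are not independent of one another.

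**Figure D4:**
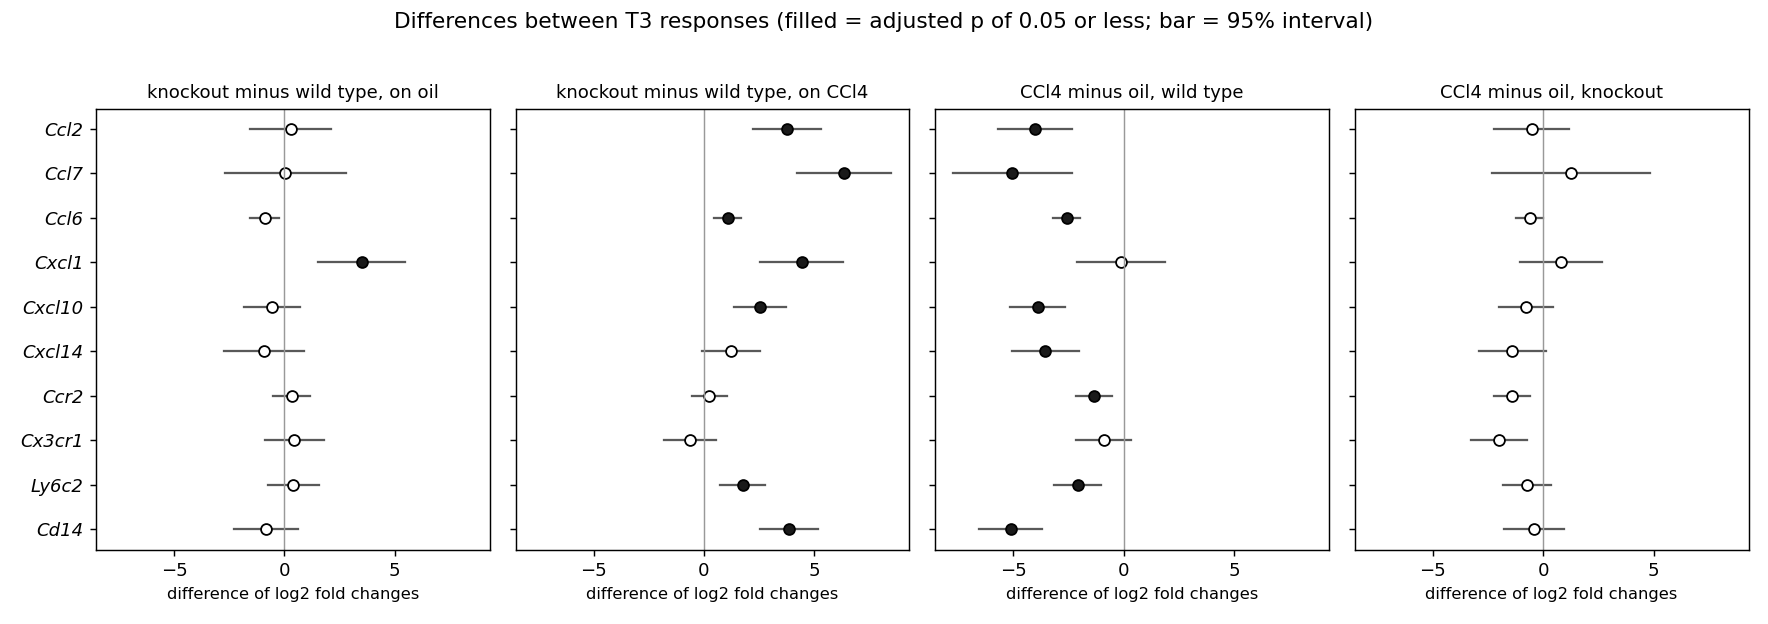
Differences between responses for each gene as log2 values with 95% intervals, in 4 panels: the T3 response of knockouts minus that of wild type on oil and on CCl4, and the T3 response on CCl4 minus that on oil within wild type and within knockouts. Filled points are calls, and Ccl7 stood at 6.35 and Ccr2 at 0.25 in the knockout minus wild-type panel on CCl4.

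Other genes of the pathway were taken from lists of chemokines, receptors and their signalling. Of 8 tested CC ligands outside the 10 genes, CCl4 in wild type on PBS raised 5 and lowered 2. Ccl22, a macrophage-derived ligand of CCR4, rose by 4.17 ± 0.71, Ccl3, a ligand of CCR1, by 2.51 ± 0.57, and Ccl9 had a value of -1.57 ± 0.26. Of 11 other CXC, CX3C and XC ligands 5 rose and 2 fell. Cxcl2, a CXCR2 ligand like Cxcl1, rose by 5.75 ± 0.93 (adjusted p = 2.72e-05) from 0.0842 to 0.261 CPM in oil livers to 0.848 to 26.4 CPM, and Cxcl12, the CXCR4 ligand that holds cells in marrow, had a value of -1.38 ± 0.21. Of 14 other receptors 4 rose and 3 fell, near the shares of all tested genes in this comparison, 24.6% higher and 21.6% lower. Ccr1, a receptor of monocytes and neutrophils for CCL3 and CCL5, rose by 2.96 ± 0.40, and Cxcr2, the neutrophil receptor for CXCL1 and CXCL2, by 2.50 ± 0.50. The median log2 fold change was 1.21 over the CC ligands, 0.64 over the CXC-type ligands and 0.17 over the receptors, beside 0.04 over all genes. In knockouts on PBS these lists had 3 CC ligands higher and 2 lower, 4 CXC-type ligands higher and 1 lower, and 3 receptors higher and 2 lower. Over all tested genes 17.8% were higher and 13.4% lower there.

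Downstream lists were led by other genes. Of 16 tested genes of CD14 and TLR4 signalling CCl4 in wild type on PBS raised 7, among them Ly96, the TLR4 partner MD-2 (1.37 ± 0.23), and lowered 0. Of 13 cytokine and adhesion genes it raised 8, among them Vcam1, which arrests monocytes on endothelium (1.35 ± 0.22), and Sele, E-selectin (3.65 ± 0.88). Isg15, a ubiquitin-like interferon product, rose by 3.09 ± 0.37. The medians of these lists were 0.35 and 0.85. Of all tested genes 24.6% were higher in that comparison. T3 on oil in wild type raised 9 of the CD14 and TLR4 genes and 6 of the cytokine and adhesion genes and lowered 0, with medians of 0.49 and 0.87. Beside them 19% of all tested genes were higher. Isg15 rose by 3.33 and Cxcl9, like Cxcl10 a CXCR3 ligand induced by interferon, by 1.94 ± 0.27. Ccl24, an eotaxin of macrophages, rose by 3.03 ± 0.42 in wild type and 3.06 ± 0.42 in knockouts.

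On CCl4, T3 in wild type raised 2 of the 8 CC ligands and lowered 0, and raised 4 of the 11 CXC-type ligands and lowered 3. Cxcl2 fell by 4.28 on the log2 scale (signed value -4.28 ± 0.82, adjusted p = 1.40e-04). Ccr1 changed by -1.63 ± 0.36 (adjusted p = 6.99e-04), and the 14 receptors had 3 higher and 3 lower. The cytokine and adhesion list had 2 higher and 4 lower and the CD14 and TLR4 list 3 higher and 2 lower, so direction was mixed in those lists. Among all tested genes 20% were higher and 21.7% lower, so the receptor counts were near the background. The medians of the 5 lists lay between -0.27 and 0.53, beside -0.06 over all genes. The genotype difference in this T3 response was called with a larger knockout value for 0 of 8 CC ligands, 2 of 11 CXC-type ligands, 2 of 14 receptors, 5 of 16 CD14 and TLR4 genes and 7 of 13 cytokine and adhesion genes, beside 10.3% of all genes, and with a smaller one for 0 genes of these lists. Cxcl2 stood at 4.98 ± 1.08 (adjusted p = 0.00137) and Ccr1 at 2.14 ± 0.50 (adjusted p = 0.00275).

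Markers of the leukocytes these genes recruit or mark were summed beside the results. The monocyte list of 18 genes ran from 81.5 to 189 CPM in wild-type PBS-oil livers (median 112), from 190 to 416 after CCl4 (median 243), from 323 to 612 on T3 and oil (median 352) and from 307 to 426 on T3 and CCl4 (median 409). In knockouts the medians were 88.1, 256, 295 and 327 CPM in the same order. Single markers went both ways: T3 in injured wild type raised 5 of the 18, such as Csf1r (1.31), and lowered 7, such as Vcan (-2.28), with a median log2 fold change of -0.57, so the sum and the median of the list differed in sign. CCl4 on PBS in wild type raised 13 and lowered 1, and T3 on oil in wild type raised 12 and lowered 1. The shares of all tested genes that were higher there were 24.6% and 19%. For T3 in injured wild type 20% of all tested genes were higher and 21.7% lower.

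Kupffer cell markers, 10 genes, had medians of 322 CPM in wild-type PBS-oil, 365 in PBS-CCl4, 1069 in T3-oil and 986 in T3-CCl4 livers. T3 on oil raised all 10 of them in wild type and 9 in knockouts, with Clec4f at 2.72 and Timd4 at 2.64 in wild type. In injured livers T3 raised 8 in wild type and 5 in knockouts. Of all tested genes T3 raised 19% in wild type and 10.6% in knockouts on oil, and 20% and 1.77% on CCl4. Neutrophil markers, 10 genes of which 8 were tested, had medians of 16.4 CPM in wild-type PBS-oil, 51 in PBS-CCl4 and 21.3 in T3-CCl4 livers, and 41 in knockout T3-CCl4 livers. The wild-type PBS-CCl4 sums were 29.4 to 61.9 CPM in 3 livers and 358 CPM in replicate 2, the liver with the highest Ccl2, Ccl7 and Cd14. T3 in injured wild type lowered 7 of the 8, with S100a8 at -3.26 and S100a9 at -3.17, and the genotype difference was called for 5 of the 8. Over all tested genes 21.7% were lower and 22.7% had a called genotype difference. These marker sizes include replicate 2 of wild-type PBS-CCl4, and the wild-type T3-CCl4 sums were 20.5 to 25.4 CPM. Lymphocyte sums had medians of 11.3, 8.21, 19.0 and 14.3 CPM in wild-type PBS-oil, PBS-CCl4, T3-oil and T3-CCl4 livers. Hepatocyte marker sums were 43270 to 62171 CPM in wild-type PBS-CCl4 livers, 71977 to 105882 CPM in wild-type T3-CCl4 livers and 87432 to 112307 CPM in knockout T3-CCl4 livers. Cholangiocyte sums, 6 genes, were 125 to 343 CPM in wild-type PBS-CCl4 livers and 57 to 157 CPM in T3-CCl4 livers, where T3 lowered 5 of the 6. In injured wild type T3 raised 2 and lowered 2 of 12 stellate cell and fibroblast markers and lowered 2 of 9 endothelial markers. Of all tested genes 20% were higher and 21.7% lower in that comparison. No listed marker was without counts. The part of these marker shifts in the results on the 10 genes was not tested.

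**Figure D5:**
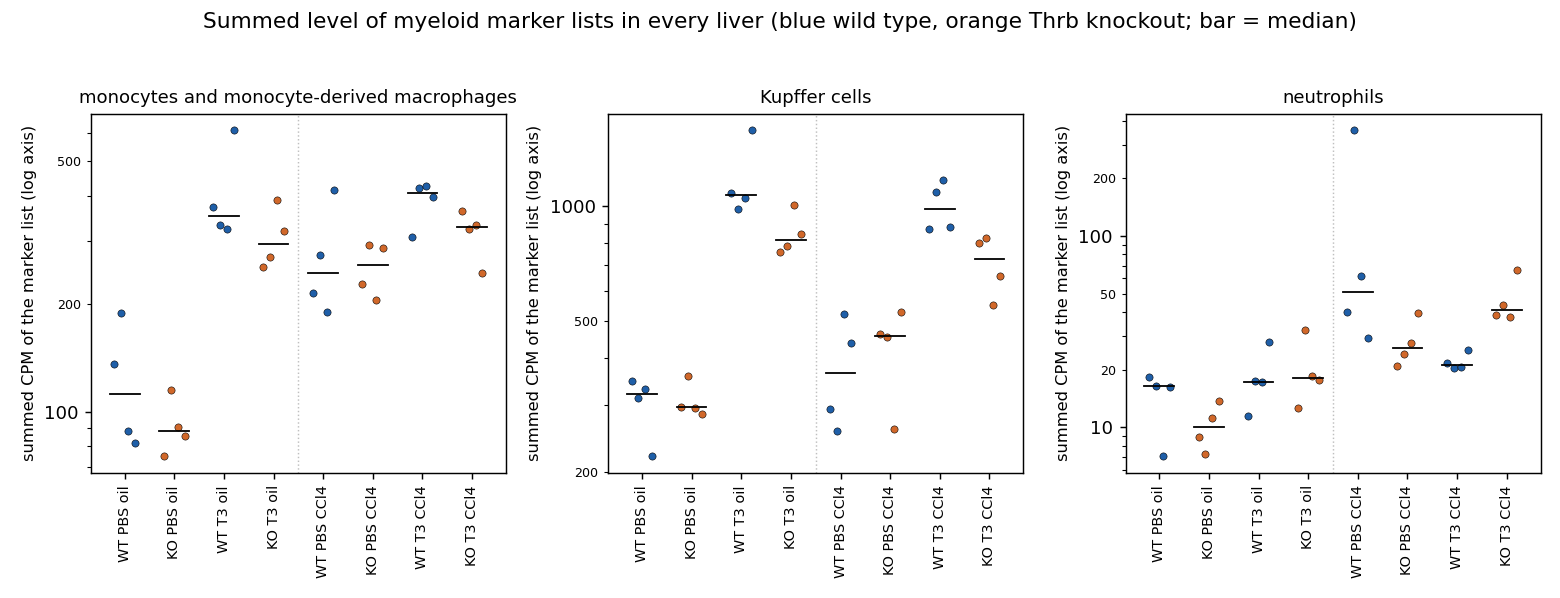
Summed CPM of the monocyte, Kupffer cell and neutrophil marker lists in every liver by group, on a log axis, with wild type in blue, Thrb knockout in orange and a bar at the median of 4 mice. The neutrophil sum of wild-type PBS-CCl4 replicate 2 (358 CPM) lies far above the rest, and Kupffer sums are higher on T3, up to 1587 CPM.

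One liver moved with several T3 results on oil. Replicate 4 of wild-type T3-oil had the highest values of its group for Ccl2, Ccl7, Ccl6, Cxcl1, Cxcl10, Cxcl14, Ccr2, Cx3cr1, Ly6c2 and Cd14, that is, all 10 genes. It also had the highest sums of its group for monocyte (612 CPM), Kupffer cell (1587), neutrophil (27.8) and lymphocyte (25.7) markers. Its sums for stellate cell and fibroblast (487) and cholangiocyte (126) markers were the highest of the group as well, and that for hepatocytes (70113) was the lowest.

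Genes with the most similar pattern over the 32 libraries were ranked by Pearson r of log2 CPM, given as a description, since libraries share groups and large group effects. Ccl2 ran closest to Slfn4 (r = 0.94), Slc7a6 (0.93) and Igsf8 (0.93), and Ccl7 to Plscr1 (0.94). Ccl6 ran closest to Slamf9 (0.97), Ms4a6d (0.95) and Emilin2 (0.95), and Cxcl14 closest to Ccl6 itself (0.91), followed by Slamf9 (0.91). Cxcl1 ran close to Flot1 and Mt1 (0.85 each), and Cxcl10 to Hap1 (0.88), Isg15 (0.87) and Oasl1 (0.87). Ccr2 ran closest to Fblim1 (0.92), Capg (0.92) and Trem2 (0.91), Cx3cr1 to Mrc2 (0.90), Ccr2 (0.88) and Trem2 (0.87), Ly6c2 to Ppp1r18, Selplg and Fgr (0.87 each), and Cd14 to Rcc2 (0.97), Tmem43 (0.96) and Cdc42se1 (0.96). After the group means were removed the leading genes were others: Mmp3 for Ccl2 (0.83), Mapk6 for Ccl7 (0.89), Entpd1 for Ccl6 (0.70), Bid for Cxcl1 (0.81), Nfkb2 for Cxcl10 (0.76), Smim5 for Cxcl14 (0.71), Sox4 for Ccr2 (0.82), Sept4 for Cx3cr1 (0.85), Prkcd for Ly6c2 (0.75) and Eif4ebp1 for Cd14 (0.89).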

How the data were processed

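Poly(A) RNA-seq libraries from 32 mouse livers had been made with 2 TruSeq kits, RNA v2 or Stranded mRNA, per the labels' protocols, without a record of which library used which, so kit and group cannot be told apart. FastQC 0.11.5, Trim Galore, cutadapt, STAR 2.7.9a and GRCm38 are named in the submitters' processing notes, while for the counting tool, annotation and strand setting nothing is given (not stated in the sources used here). The values are raw gene counts deposited by the authors, 16985162 to 26118055 a library. Of 52636 Ensembl IDs, 52403 were paired with a GENCODE vM21 symbol, and genes without one held at most 0.0656% of a library's counts.

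Counts were filtered with edgeR 4.0.16 (minimum count 10, minimum total 15), which kept 15599 genes and at least 99.5% of each library. CPM were computed here with TMM factors. A quasi-likelihood model with 1 mean per group, over all 32 libraries, gave 18 comparisons, with Benjamini-Hochberg adjustment over all genes and a threshold of 0.05 (R 4.3.3, limma 3.58.1). All adjusted p-values are from this fit unless another tool is named. Alternatives were size factors (RLE), total counts alone, no filter, the compared groups only, the replicate number as a block, DESeq2 1.42.0, and each library left out. The scripts were tested on simulated data. Libraries of a group differed beyond sampling noise (chi-square per degree of freedom at least 18.2 over 48 pairs). Intervals on levels from single libraries cover counting error only.

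The 10 genes were all tested in every comparison, and some of their values are not printed. From each other list the called genes of smallest adjusted p (at most 4), and at most 2 called against the majority direction, could be named, plus Thrb and Dio1 as label checks and, for each of the 10, the 3 genes of highest Pearson r. Some items these rules cover are not reported here. Members and lists were chosen with earlier results of these data known.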

Additional observations from a re-analysis of the deposited data

Results flagged for a closer look

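Within 80 combinations of gene and group, 7 had a liver far from the other 3 of its group, where chance gives about 1 in 20, and these came from 4 livers. Replicate 4 of wild-type T3-oil was such a liver for Ccl2 (4.87 CPM against 1.09 to 1.38 CPM in the others), Cxcl10 (14.2 against 6.39 to 6.84), Ly6c2 (2.85 against 0.874 to 0.956) and Cd14 (10.8 against 6.37 to 6.49). Replicate 2 of wild-type PBS-CCl4 had 47.5 CPM of Ccl7 against 0.202 to 4.47. For Cxcl1, replicate 3 of knockout PBS-CCl4 had 31.2 CPM against 8.23 to 11.3, and replicate 4 of knockout T3-oil had 3.42 against 7.16 to 7.9. The cause of these values was not tested.

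Of 60 tests of a difference between responses, 18 were called by edgeR's quasi-likelihood test. Of all tested genes, 12.2% were called for the genotype difference in the T3 response on oil and 22.7% for that on CCl4. For the genotype difference in the CCl4 response the shares were 0.0192% on PBS and 13.5% on T3. For the injury difference in the T3 response they were 23.9% in wild type and 3.71% in knockouts. The T3 response on CCl4 was higher in knockouts than in wild type by 3.77 for Ccl2, 6.35 for Ccl7, 1.07 for Ccl6, 4.42 for Cxcl1, 2.54 for Cxcl10, 1.75 for Ly6c2 and 3.85 for Cd14, as differences of log2 fold changes. On oil it was higher in knockouts by 3.50 for Cxcl1. The CCl4 response on T3 was higher in knockouts by 1.58 for Ccl6 and 3.25 for Cd14. Within wild type the T3 response on CCl4 minus that on oil was -4.00 for Ccl2, -5.04 for Ccl7, -2.58 for Ccl6, -3.88 for Cxcl10, -3.54 for Cxcl14, -1.33 for Ccr2, -2.07 for Ly6c2 and -5.11 for Cd14.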

How the results depend on the processing

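Calls over the 10 genes numbered 24 for CCl4, 21 for T3, 8 for knockout and 18 for differences between responses. With the replicate block they were 23, 22, 6 and 18, with DESeq2 24, 24, 10 and 23, with total counts alone 26, 21, 8 and 21, without a filter 24, 20, 8 and 18, with the compared groups only 24, 20, 9 and 22, and with RLE factors 24, 21, 8 and 18. Leaving out 1 library gave 22 to 26, 19 to 25, 6 to 12 and 17 to 21. Replicate numbers did not pair libraries: over 112 same-numbered pairs the correlation of deviations from group means ran from -0.35 to 0.51 with a median of -0.01. Of 2992 values of single genes under an alternative, 2822 kept their sign and side of the threshold, 51 lost a call, 47 gained one, and 72, called in neither fit, turned sign. By comparison, calls moved past 1.5 times as follows. DESeq2 and the compared groups only each gave 5 in place of 2 for the genotype difference in the CCl4 response on T3 (total counts also 5), 2 in place of 1 for knockout on T3 and oil, and 2 in place of 0 for the injury difference in knockouts. For the first of these, calls over all tested genes rose too, from 967 higher and 1132 lower in the main fit. They were 1292 and 1394 in DESeq2, 1900 and 697 with total counts, and 1602 and 1887 with the compared groups only. For T3 in injured knockouts DESeq2 and the replicate block each gave 2 in place of 1. For knockout on PBS and CCl4 in place of 1 DESeq2 gave 2, and the replicate block and the compared groups only gave 0. Over all tested genes that comparison had 189 higher and 162 lower in the main fit. It had 360 and 371 in DESeq2, 166 and 99 with the replicate block, and 3 and 0 with the compared groups only. The compared groups only gave 1 in place of 0 for CCl4 in wild type on T3 and 2 in place of 1 for the genotype difference in the T3 response on oil. Ccr2 in wild-type PBS-CCl4 livers was 8.17 CPM by total counts in place of 6.78. With Spearman rho in place of Pearson r, 14 of 20 sets of the 3 most similar genes shared fewer than 2 genes. Depth limits Ccl7 and Cxcl14 in oil livers on PBS, where counts reached 0, so their fold changes are imprecise. Groups of 4 with 1 divergent liver limit Ccl7, Cxcl1 and Cd14.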
